A study of Mus musculus with 9 samples.

Results

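CD4+CD25+ regulatory T cells (Treg) of wild type mice are described here by the genes whose transcripts were bright, intermediate or at the floor of the array. The series holds 9 Affymetrix arrays, of which 3 are wild type and the rest come from mice with Sirt1 deleted by Cre. Only the 3 wild type arrays were used, and the deletion was not studied. The wild type mice carried the C57BL6 strain label and no deletion or agent is named for them. The cells were enriched with magnets for CD4 and CD25 and called independent samples in the design text. The sources used here give no age, sex, organ or number of mice per sample, so p-values rest on how much these 3 samples vary, and that variation can be technical. Each of 12393 genes was taken at its brightest probe set by mean log2 signal.

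Regulatory T cells restrain other immune cells. Their identity rests on the transcription factor Foxp3, and they consume interleukin 2 through the high affinity receptor whose alpha chain is CD25, the product of Il2ra. They act in part through the inhibitory receptor CTLA-4, through suppressive cytokines and through enzymes that make adenosine. CD25 is also found on recently activated conventional T cells, so a CD4+CD25+ fraction can hold both.

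Signals are log2 values, so 1 unit between arrays for the same probe set is a 2-fold difference. Probe sets bind with different strength, so ranks below are ranks of signals and not of transcript number, and no fold is given between genes. The floor was set from 73 genes of liver, muscle, brain, testis and other tissues outside blood. Their 95th percentile was a log2 signal of 5.51. A gene was called above the floor when limma's moderated test, one-sided and adjusted over all genes by Benjamini-Hochberg, gave an adjusted p below 0.05. By this rule 6439 genes, 52.0%, were above the floor. The top 10% of all genes, 1239 genes with means of 9.15 to 13.78, are called abundant. Another 5200 genes were called above the floor but not abundant, and are called moderate. A further 357 lay above the threshold without passing the test, and are called unresolved. The last 5597 genes, 45.2%, lay at or below it. A gene at the floor was not detectable with these probe sets, which does not show that its transcript was absent.

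On several measures replicate 2 was unlike replicates 1 and 3. Over all probe sets Pearson's r was 0.986 with replicate 1 and 0.987 with replicate 3, against 0.997 between replicates 1 and 3. The 5′ minus 3′ control difference of beta-actin was -1.53 on replicate 2, against -0.45 and -0.63 on replicates 1 and 3. The corresponding Gapdh differences were -1.10, -0.05 and -0.36. The hybridisation controls BioB, BioC, BioDn and CreX were each highest on replicate 2. BioB had means of 7.94, 9.98 and 8.40 on replicates 1, 2 and 3, and CreX read 13.12, 13.75 and 13.28. Values are therefore given for each array, in the order of replicates 1, 2 and 3. Without replicate 2, 6497 genes were called above the floor, of which 6380 were called on all 3 arrays together, and 1184 of the 1239 abundant genes were again abundant. Counts of called genes in a list are given without replicate 2 wherever they differ.

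**Figure D1:**
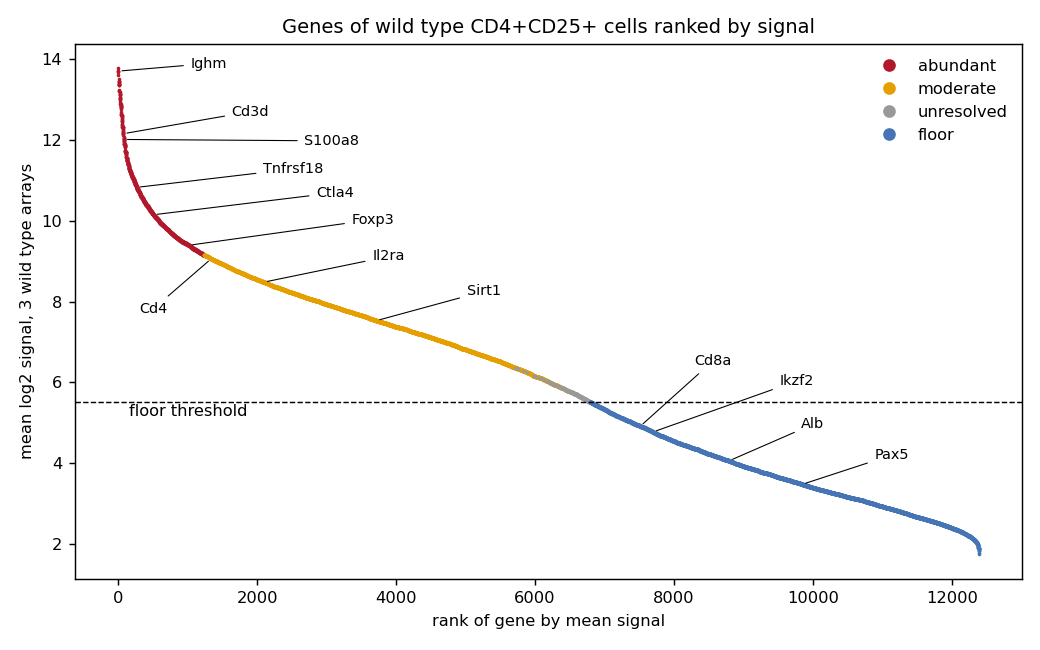
Mean log2 signal of 12393 genes over the 3 wild type arrays against the rank of the gene, with 1 point per gene coloured by class and the floor threshold of 5.51 as a dashed line. Foxp3, Ctla4 and Tnfrsf18 lie among the abundant genes, Cd4, Il2ra and Sirt1 among the moderate ones, and Ikzf2, Cd8a, Pax5 and the liver gene Alb at the floor.

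The brightest genes were those of protein synthesis and the actin cytoskeleton. Of the 25 brightest genes 17 encode cytosolic ribosomal proteins, the parts of the machine that makes proteins. Others are the elongation factor Eef1a1, the growth-related protein Tpt1, the actin gene Actb and the actin-binding thymosins Tmsb10 and Tmsb4x. Tmsb10 ranked first with signals of 13.74, 13.83 and 13.77. The MHC class I heavy chain H2-K1 (13.52, 13.23 and 13.53) and the transmembrane protein gene Shisa5 (13.20, 13.26 and 13.21) were also in this group. Ighm, the heavy chain of IgM, ranked 3 of 12393 with 13.72, 13.67 and 13.74. The edge of the abundant class ran between Klf3, Sesn3 and Pbrm1 (means of 9.16, 9.15 and 9.15) inside and Nudc, Snrpb2 and Ccng2 (9.15, 9.15 and 9.15) outside.

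The promoters of genes above the floor were richer in the dinucleotide CG than those of genes at the floor. RefSeq promoters of the build GRCm38.p6, from 250 bases before to 50 after the annotated start, were read for the 7938 genes with a single promoter entry. The CG content was measured as observed over expected, the number of CG pairs against that given by the C and G content. It was over 0.6 in 80% of 830 abundant genes, in 82.2% of 3359 moderate genes and in 38.4% of 3529 genes at the floor. Among all 7938 array genes the share was 62%. Among all 22862 single promoter entries, on the array or not, it was 35.7%. Of 6 promoters from the T cell receptor complex list, which also holds other surface antigens of T cells, 0 passed 0.6. Of 20 promoters of ribosomal protein genes 16 did. The Treg signature had 7 of 17 and the secreted cytokines and chemokines 2 of 28.

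The upstream 250 bases of 5 promoters are shown, 5′ to 3′ on the strand of the gene, because they span these cases, with every CG in capitals. Rplp2, a ribosomal protein gene at a mean signal of 13.71, lies at chr7:141447401-141447650 on the plus strand and holds 24 CG. Cd3d, a signalling chain of the T cell receptor at 12.16, lies at chr9:44981536-44981785 (plus) and holds 0. Tnfrsf18 at 10.83 lies at chr4:156026072-156026321 (plus) and holds 2, and Ctla4 at 10.15 lies at chr1:60908775-60909024 (plus) and holds 7. Alb, the serum albumin gene and a floor gene at 4.05, lies at chr5:90460620-90460869 (plus) and holds 2.
Rplp2: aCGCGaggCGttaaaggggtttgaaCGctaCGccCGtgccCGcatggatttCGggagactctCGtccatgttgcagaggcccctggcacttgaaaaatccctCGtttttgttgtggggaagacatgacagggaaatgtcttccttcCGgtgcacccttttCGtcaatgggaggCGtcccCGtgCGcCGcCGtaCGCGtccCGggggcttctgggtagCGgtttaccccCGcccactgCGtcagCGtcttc
Cd3d: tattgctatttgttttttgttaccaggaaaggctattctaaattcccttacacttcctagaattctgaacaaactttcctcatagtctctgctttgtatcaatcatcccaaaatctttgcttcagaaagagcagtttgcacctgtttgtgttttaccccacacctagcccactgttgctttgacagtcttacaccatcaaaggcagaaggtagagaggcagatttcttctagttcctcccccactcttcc
Tnfrsf18: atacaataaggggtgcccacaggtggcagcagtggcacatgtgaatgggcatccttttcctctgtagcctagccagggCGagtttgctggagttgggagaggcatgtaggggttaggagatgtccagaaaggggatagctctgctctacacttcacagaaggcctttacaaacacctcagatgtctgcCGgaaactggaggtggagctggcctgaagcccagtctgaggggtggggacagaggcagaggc
Ctla4: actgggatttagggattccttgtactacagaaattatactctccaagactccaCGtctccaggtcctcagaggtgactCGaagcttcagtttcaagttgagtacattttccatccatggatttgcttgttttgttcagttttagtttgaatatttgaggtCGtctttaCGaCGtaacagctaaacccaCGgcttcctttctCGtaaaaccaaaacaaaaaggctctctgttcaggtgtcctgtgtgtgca
Alb: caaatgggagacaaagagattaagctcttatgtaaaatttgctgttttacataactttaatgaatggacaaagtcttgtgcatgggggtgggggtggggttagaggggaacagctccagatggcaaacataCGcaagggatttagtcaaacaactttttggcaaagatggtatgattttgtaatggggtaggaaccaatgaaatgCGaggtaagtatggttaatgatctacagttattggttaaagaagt
Cd3d and Alb thus both had few CG pairs, although Cd3d was abundant and Alb at the floor.

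Short motifs were searched on both strands of the full 300 bases. No motif contains another, but those with CG in them go with the CG content. The ETS motif CCGGAAG was found in 21.1% of abundant, 24.6% of moderate and 5.89% of floor promoters, against 15.5% of all array genes. In ribosomal protein promoters it was found in 10 of 20. The NRF1 recognition motif stood in 13.4%, 13.7% and 3.51% of the same classes (8.99% of all array genes). The GC box GGGCGG stood in 68.1%, 69.3% and 44.2% (57.9% of all array genes). The TATA box TATAAA was found in 10.4%, 5.75% and 15.5% (10.7% of all array genes). It stood in 12 of 28 promoters of secreted cytokines and chemokines and in 23 of 56 promoters of the tissue genes outside blood. The CCAAT box CCAAT was found in 39.8%, 39.2% and 37.6% (38.6% of all array genes). The STAT motif TTCNNNGAA was found in 6.39%, 7.2% and 7.14% (7.05% of all array genes). The CCAAT box and the STAT motif differed least between the classes in proportion to their frequency. The CRE motif TGACGTCA was found in 3.73%, 3.27% and 2.04% (2.78% of all array genes). A match is a run of letters and not a shown binding site.

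The defining genes of regulatory T cells were all above the floor. Foxp3, the lineage factor, read 9.16, 9.68 and 9.34, a mean of 9.39 ± 0.26 (SD, n = 3 arrays; limma adjusted p = 8.57e-06 against the floor), at rank 1021 of 12393. Ctla4 read 10.05, 9.97 and 10.43, a mean of 10.15 ± 0.25 (adjusted p = 5.37e-06). Tnfrsf18, which encodes the costimulatory receptor GITR, read 10.92, 10.71 and 10.86, a mean of 10.83 ± 0.10 (adjusted p = 3.23e-06). These 3 were abundant. Il2ra, the CD25 antigen by which the cells were separated, was moderate with 8.39, 8.49 and 8.56, and Cd4 was moderate with 8.91, 9.23 and 9.04. The other probe set of Il2ra read 6.96, 6.29 and 6.77. The other probe set of Cd4 lay at or below the threshold with 5.23, 5.18 and 5.13. Both antigens served in the separation, so their signals are not an independent sign of the cell type. The part of the separation in these transcript signals was not tested. Foxp3, Ctla4 and Tnfrsf18, which did not serve in the separation, lay above the floor threshold on each of the 3 arrays.

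Of 29 measured Treg signature genes 26 were called above the floor in limma (52.0% of all genes were), and 27 without replicate 2. Lrrc32, Tigit and Dusp4 were also on the list and are not analysed here. There were 10 abundant, 16 moderate and 2 unresolved genes, and 1 at the floor. Beside the markers above, the abundant members were the G protein regulator Rgs1 (10.76, 10.14 and 10.60), the costimulatory receptor Tnfrsf4 or OX40 (10.42, 10.57 and 10.37), the folate receptor family gene Izumo1r (9.89, 9.93 and 9.93), the costimulator Icos (9.50, 9.87 and 9.67), the actin-capping gene Capg, the semaphorin receptor Nrp1 and the inhibitory lectin receptor Klrg1. All 10 abundant members were above the floor on each array. Tgfb1, a suppressive cytokine, was moderate with 8.92, 9.22 and 8.83, and Ebi3, a subunit of interleukin 35, read 7.37, 7.78 and 7.40. Il10, another suppressive cytokine, was unresolved with 6.08, 5.29 and 5.93, replicate 2 lying below the threshold and the others above. The adenosine-making ectoenzymes CD73 and CD39 lay near the threshold. Nt5e (CD73) was moderate with 5.84, 5.63 and 5.83, and Entpd1 (CD39) was unresolved with 5.59, 5.78 and 5.56. Ikzf2, which encodes the Treg transcription factor Helios, was at the floor with 5.10, 4.17 and 5.04, while its relative Ikzf4 (Eos) was moderate with 7.88, 8.39 and 8.18.

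**Figure D2:**
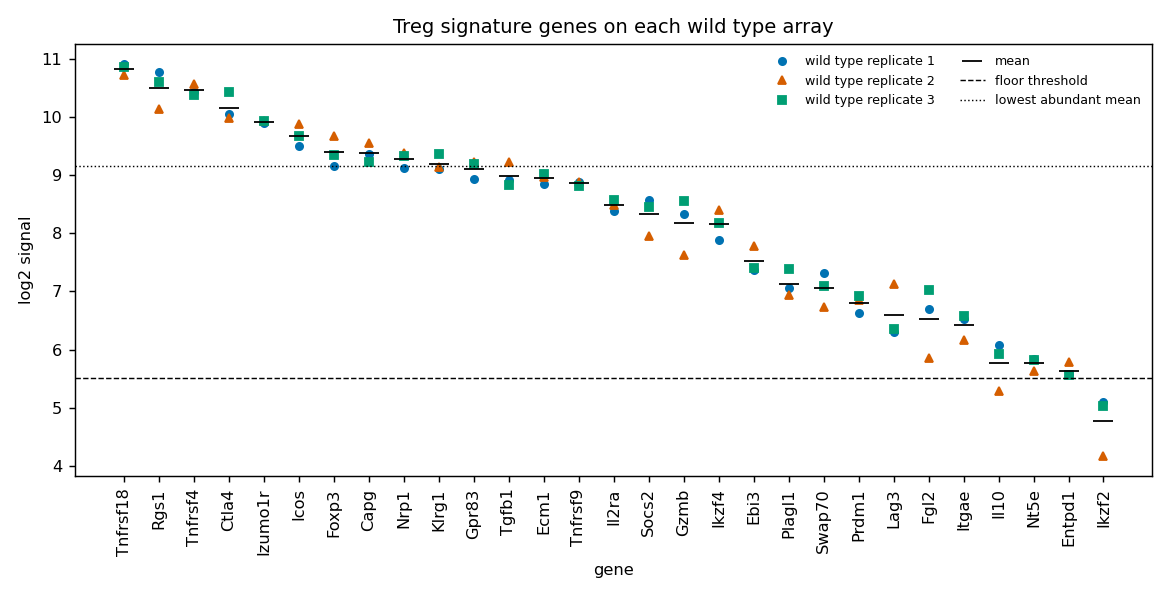
Log2 signal of 29 Treg signature genes on each wild type array, ordered by mean (black bar), with the floor threshold (dashed) and the lowest abundant mean (dotted). All but Il10, Nt5e, Entpd1 and Ikzf2 have means above 6, and Ikzf2 lies below the floor threshold on all 3 arrays.

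The T cell receptor complex list had the largest share of abundant genes among the lineage lists. Beside the CD3 chains and Cd247 it holds coreceptors, costimulators and general surface antigens such as Cd4, Cd28, Cd27, Thy1 and Ptprc. All 13 measured genes were called above the floor (100%, against 52.0% of all genes), and 12 were abundant (92.3%, against 10% of all genes). The common leukocyte antigen Ptprc read 12.68, 12.40 and 12.75, and Cd3d 12.24, 12.07 and 12.17. The other CD3 chains Cd3g (11.61, 11.43 and 11.52) and Cd3e (11.06, 11.15 and 10.98), the zeta chain Cd247 (10.03, 9.70 and 9.89) and the T cell antigens Thy1, Cd2 and Cd5 were also abundant. Cd28, the main costimulatory receptor of T cells, read 10.09, 9.23 and 10.09, replicate 2 being the low array. Signalling genes downstream of the receptor were called in 17 of 20 cases (85%, against 52.0% of all genes), and 16 without replicate 2. The adaptors Lat (10.91, 10.56 and 10.89) and Lcp2 (10.62, 9.94 and 10.74), the kinases Zap70 (10.19, 10.03 and 10.06) and Prkcq (10.37, 10.34 and 10.44) and the inhibitory kinase Csk (10.35, 10.23 and 10.30) were abundant. Plcg1, the phospholipase of this pathway, was at the floor with 3.94, 4.02 and 3.97, as were Nfatc2 and the adaptor Grap2.

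Genes of naive and recirculating T cells were present beside the Treg genes. Of 14 measured members 12 were called (85.7%, against 52.0% of all genes) and 7 were abundant. Klf2, a transcription factor of quiescence and homing, read 11.57, 11.34 and 11.76, and the interleukin 7 receptor Il7r 10.77, 10.85 and 10.86. The chromatin organiser Satb1, the forkhead factors Foxp1 and Foxo1 and the lymph node homing receptor Ccr7 (9.83, 9.63 and 9.57) were abundant as well. Il2, a cytokine that regulatory T cells characteristically do not make, was at the floor with 5.84, 4.96 and 5.30, although replicate 1 lay above the threshold. Its mean without replicate 2 was 5.57. Cd40lg, the helper ligand of activated conventional T cells, was at the floor with 5.27, 4.95 and 5.12.

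Among 33 transcription factors of T cells 30 were called (90.9%, against 52.0% of all genes), 29 without replicate 2. Of these factors 13 were abundant, 15 without replicate 2. The RNA-binding regulator Zfp36l2, which was counted with them, read 12.44, 12.19 and 12.57 at its brightest probe set. The other probe sets of Zfp36l2 had means of 4.89 and 4.86, below the threshold. Ets1 read 11.50, 10.95 and 11.44, the T cell commitment factor Bcl11b 10.43, 10.78 and 10.63, and Id2, an inhibitor of helix-loop-helix factors, 10.73, 10.17 and 10.56. Nr4a1, which is induced by receptor stimulation, read 10.47, 10.29 and 11.003, whereas its relatives differed: Nr4a2 was moderate with 6.12, 6.62 and 6.86 and Nr4a3 was at the floor with 4.75, 4.97 and 4.49. Runx3 and Ikzf1 were the other factors at the floor.

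Genes of the helper lineages were mixed, and each lineage had members in more than 1 class. The shares called were 66.7% for T helper 1, 50% for T helper 2, 57.1% for T helper 17, 71.4% for follicular helper and 50% for innate-like genes, against 52.0% of all genes. These lists are short, and the T helper 2, T helper 17 and innate-like shares were near that of all genes. Of 9 T helper 1 genes 6 were called. The chemokine Ccl5 read 11.10, 11.42 and 11.04 and the receptor Cxcr3 10.13, 9.66 and 9.88. Tbx21, the T helper 1 factor T-bet, was moderate with 8.66, 9.02 and 8.56, and its target cytokine Ifng with 8.65, 8.54 and 8.49. The receptor chain Il12rb2 was at the floor. Of 10 T helper 2 genes 5 were called. Gata3, the T helper 2 factor that regulatory T cells also use, was abundant with 9.31, 9.17 and 9.45, and Stat6 with 9.94, 9.99 and 10.12. Il4 was moderate with 6.55, 6.56 and 6.26, while Il5 (2.77, 2.79 and 2.75), Il13 (4.15, 4.11 and 4.11) and the receptor Ccr4 were at the floor. Of 7 T helper 17 genes 4 were called, the receptor-like factors Rora (8.16, 8.36 and 8.39) and Ahr (7.23, 7.10 and 7.28), the factor Batf and the chemokine receptor Ccr6. The cytokine Il17a was at the floor with 3.87, 4.01 and 3.73. Of 7 follicular helper genes 5 were called, among them the moderate Bcl6, Pdcd1 and Cxcr5, and Il21 and Ascl2 were at the floor. The other probe sets of Ahr and Bcl6 had means of 3.52 and 4.80, below the threshold. Of 4 innate-like and gamma-delta T cell genes measured 2 were called, and Zbtb16, the factor PLZF, was unresolved with 5.58, 6.31 and 5.57.

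Cytokine receptors were called in 23 of 30 cases (76.7%, against 52.0% of all genes). The receptor chains of the common gamma chain family led them with Il7r and with Il2rb, the beta chain for interleukin 2 and 15, at 9.98, 10.11 and 10.20. The receptor chains Tgfbr2 (10.05, 9.43 and 10.005), Il17ra (9.67, 9.74 and 9.93) and Il6ra (9.32, 10.10 and 9.83) were abundant too. At the floor were Lifr, Il9r, Tgfbr3, Il12rb2, Il1r1 and the erythropoietin receptor Epor. The kinases and factors below these receptors were called in 15 of 18 cases (83.3%, against 52.0% of all genes), and in 17 without replicate 2. Jak1 read 11.001, 10.20 and 10.91, and the feedback inhibitor Cish, a target of STAT5, 9.84, 9.56 and 9.89. Stat5b (9.37, 9.09 and 9.44) was abundant and Stat5a (8.16, 7.92 and 8.11) moderate. Socs6 and Stat2 were unresolved, each because replicate 2 lay below the threshold, with Socs6 at 6.17, 4.98 and 5.98.

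Chemokine and related receptors fell on both sides of the floor, with 11 of 20 called, close to the 52.0% of all genes. Cxcr4 read 10.34, 10.22 and 10.56, and Cxcr6, a receptor of effector and tissue T cells, 9.70, 9.18 and 9.32. S1pr4 was abundant with 9.48, 9.40 and 9.41, and S1pr1, the receptor for exit from lymph nodes, was moderate with 8.93, 8.56 and 9.05. Ccr8 was at the floor with 5.35, 3.83 and 5.22, and so were Ackr3, Xcr1, Ccr3, Ccr4, Cx3cr1 and Ccr10. The receptors of myeloid cells, Ccr1 (6.21, 5.18 and 7.05) and Cxcr2 (5.97, 5.20 and 6.48), were unresolved, with replicate 3 highest for both.

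Costimulatory and inhibitory receptors were called in 18 of 21 cases (85.7%, against 52.0% of all genes). Cd48 read 10.74, 9.67 and 10.55, and the adhesion receptor Cd96 9.47, 9.07 and 9.31. The inhibitory receptors Pdcd1 or PD-1 (7.53, 7.21 and 7.28) and Lag3 (6.31, 7.12 and 6.36) were moderate, and Havcr2 or TIM-3 was at the floor with 3.55, 3.80 and 3.88. The ligands of CTLA-4 differed, since Cd86 was moderate with 6.45, 6.64 and 6.45 and Cd80 was at the floor with 4.47, 4.74 and 4.47. In the TNF receptor superfamily 9 of 18 were called, close to the 52.0% of all genes. Those above the floor included the T cell costimulators Cd27 (9.62, 9.10 and 9.66) and Tnfrsf25 (8.86, 8.71 and 9.19), the TNF receptors Tnfrsf1b (8.97, 8.999 and 8.999) and Tnfrsf1a (8.18, 8.17 and 8.33) and the death receptor Fas. Among the 7 at the floor were Ngfr, Tnfrsf11a, Tnfrsf21 and Tnfrsf10b.

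Integrins and adhesion molecules were called in 15 of 24 cases (62.5%, against 52.0% of all genes), 16 without replicate 2. The leukocyte beta chain Itgb2 (10.88, 10.03 and 10.89) and the gut-homing beta chain Itgb7 (10.53, 10.86 and 10.71) were abundant, as were Cd47, the selectin ligand Selplg and Cd44 (9.79, 9.77 and 9.78). Their alpha partners were less bright. Itgal was moderate with 7.04, 6.65 and 6.92, Itgae, the CD103 chain, with 6.53, 6.16 and 6.58, and Itga4 was unresolved with 5.84, 5.46 and 5.76. Itgam, the alpha chain of myeloid cells, was at the floor with 3.86, 3.50 and 4.50.

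Of 38 secreted cytokines and chemokines 18 were called (47.4%, against 52.0% of all genes), 19 without replicate 2. At the floor were 18, 47.4% against 45.2% of all genes. Lymphotoxin beta, Ltb, read 12.15, 12.14 and 12.19, and Il16, a ligand of CD4, 10.12, 9.97 and 9.91. Lta, Xcl1, Tnf, the death ligand Fasl (7.56, 7.34 and 7.36) and the chemokines Ccl3 and Ccl4 were moderate. Il1b, a product of myeloid cells, read 7.69, 7.16 and 8.65, with replicate 3 highest. Il5, Il1a, Tgfb3, Il6 and Tgfb2 had the lowest signals of the list.

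Respiratory chain and ATP synthase genes were the brightest group of metabolism. Of 45 measured genes 39 were called (86.7%, against 52.0% of all genes). Abundant were 35 (77.8%, against 10% of all genes), or 34 without replicate 2. Cox6a1 read 12.52, 12.42 and 12.39, the ATP synthase gene Atp5g3 12.08, 12.01 and 12.03, and Cox4i1 11.61, 11.51 and 11.47. At the floor were forms made in muscle, heart, lung or brown fat. These were Cox7a1 (2.65, 2.56 and 2.77), Cox8b (4.21, 4.23 and 4.24), Cox4i2 (3.94, 4.24 and 3.99) and the uncoupling proteins Ucp1 and Ucp3. The muscle form Cox6a2 was unresolved.

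In the citrate cycle 25 of 27 genes were called (92.6%, against 52.0% of all genes), 24 without replicate 2, and 9 were abundant. Malate dehydrogenases Mdh2 (10.94, 10.85 and 10.88) and Mdh1 (10.46, 10.53 and 10.42) and ATP citrate lyase, Acly (10.12, 9.87 and 9.87), led the list. Malic enzyme Me1 and pyruvate carboxylase Pcx were at the floor. Pcx makes oxaloacetate from pyruvate and is best known from liver and fat.

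Glucose uptake and glycolysis genes were called in 19 of 30 cases (63.3%, against 52.0% of all genes), and 11 were at the floor (36.7%, against 45.2%). Slc2a3, a glucose transporter, read 10.37, 10.16 and 10.69, and Slc2a1 8.35, 8.79 and 8.53. Ldha, lactate dehydrogenase A, read 11.21, 10.73 and 11.09, and aldolase Aldoa 10.40, 10.61 and 10.32. Pkm and Pgk1 were abundant as well. Hexokinase Hk1 was moderate with 8.58, 8.62 and 8.61, and Hk2 with 6.28, 6.51 and 6.19. Forms of liver, muscle, brain or testis were at the floor, such as the transporter Slc2a2 (2.38, 2.46 and 2.31), the testis enzymes Pgk2 and Ldhc and the neuronal enolase Eno2. Of the pyruvate dehydrogenase kinases Pdk1 was moderate with 8.39, 8.16 and 8.60, and Pdk4 was at the floor with 2.55, 2.90 and 2.75.

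Fatty acid oxidation enzymes were called in 18 of 25 cases (72%, against 52.0% of all genes). Only Hadh was abundant, with 9.80, 9.65 and 9.80. Cpt1a, the carnitine transferase that controls entry into mitochondria, was moderate with 8.03, 6.97 and 7.96, replicate 2 being the low array. The regulators Ppara, Ppard and Ppargc1a, the fatty acid carrier Cd36 and the tissue binding proteins Fabp1, Fabp3 and Fabp4 made up the 7 at the floor. Fabp5, the binding protein found in leukocytes, was moderate with 8.99, 9.08 and 8.90. Cholesterol and fatty acid synthesis genes were called in 23 of 28 cases (82.1%, against 52.0% of all genes). Of these, Elovl1 was the 1 abundant gene on all 3 arrays together, with 8.997, 9.74 and 9.12, and it was not abundant without replicate 2. Fasn, fatty acid synthase, was moderate with 8.20, 8.65 and 8.08, and the acetyl-CoA carboxylase genes Acaca (2.85, 3.10 and 2.85) and Acacb were at the floor.

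Genes of amino acid transport and use were called in 21 of 29 cases (72.4%, against 52.0% of all genes). The neutral amino acid transporter Slc38a2 read 10.25, 10.31 and 10.64, ornithine decarboxylase Odc1 10.13, 9.95 and 10.08, and Phgdh, the first enzyme of serine synthesis, 9.83, 10.21 and 9.71. Asparagine synthetase, Asns, was at the floor with 4.78, 4.55 and 4.43. The tryptophan and arginine enzymes Ido1, Tdo2 and Arg1 and the transporters Slc7a11 and Slc7a1 were also at the floor. The large neutral amino acid carrier was above it, with Slc3a2 at 8.94, 8.78 and 8.95 and Slc7a5 at 7.98, 7.80 and 7.65. In the pentose phosphate pathway and nucleotide synthesis 16 of 17 genes were called (94.1%, against 52.0% of all genes). Transketolase Tkt read 11.27, 11.55 and 11.35, and the thymidylate synthase gene Tyms was at the floor.

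Nutrient sensing and NAD genes were called in 21 of 28 cases (75%, against 52.0% of all genes). Txnip, which restrains glucose uptake, read 11.18, 11.02 and 11.49, and the hypoxia factor Hif1a 10.57, 10.36 and 10.68. Pik3cd, the leukocyte PI3 kinase subunit, was abundant with 9.65, 9.78 and 10.05. Mtor was moderate with 7.61, 7.82 and 7.75, and Rictor, a subunit of its second complex, was at the floor with 2.63, 2.86 and 2.63. Sirt1, the deacetylase targeted elsewhere in the series, read 7.91, 6.77 and 7.90, a mean of 7.53 ± 0.66 (SD, n = 3 arrays; limma adjusted p = 0.00126 against the floor). Its values on replicates 1 and 3 were nearly equal and replicate 2 lay below both by over 1 log2 unit. Sirt7 was abundant with 10.16, 9.79 and 10.13, Sirt2 was moderate, and Sirt3 and Sirt4 were at the floor.

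Growth and division genes were widely detected. Of all 49 ribosomal protein symbols measured 39 were abundant and 2 at the floor. Over all genes 10% were abundant and 45.2% at the floor. In the list of 30 chosen among the ribosomal symbols 27 were abundant (90%, against 10% of all genes). The 1 at the floor was Rpl3l, a form of heart and skeletal muscle, with 3.03, 3.32 and 2.72. Of 16 translation factors 14 were abundant (87.5%, against 10% of all genes). The muscle and neuron form Eef1a2 was at the floor with 5.18, 5.10 and 5.12. Of 29 cell cycle genes 23 were called (79.3%, against 52.0% of all genes). The cyclin Ccnd2 read 11.45, 11.74 and 11.49, and Pcna, the sliding clamp of DNA replication, 11.32, 10.25 and 11.10. Mki67, a marker of cycling cells, was moderate with 8.73, 9.30 and 8.94. The replication genes Mcm6 and Mcm3 and the mitotic genes Top2a (8.72, 8.12 and 8.41) and Cdc20 were above the floor as well, while the mitotic kinase Aurkb (5.90, 5.04 and 4.95), E2f1, Ccnd1, Cdkn2a, Cdk6 and Ccne2 were at the floor. Antigen processing for MHC class I was called in 10 of 10 genes (100%, against 52.0% of all genes), with B2m at 13.19, 12.63 and 13.04.

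**Figure D3:**
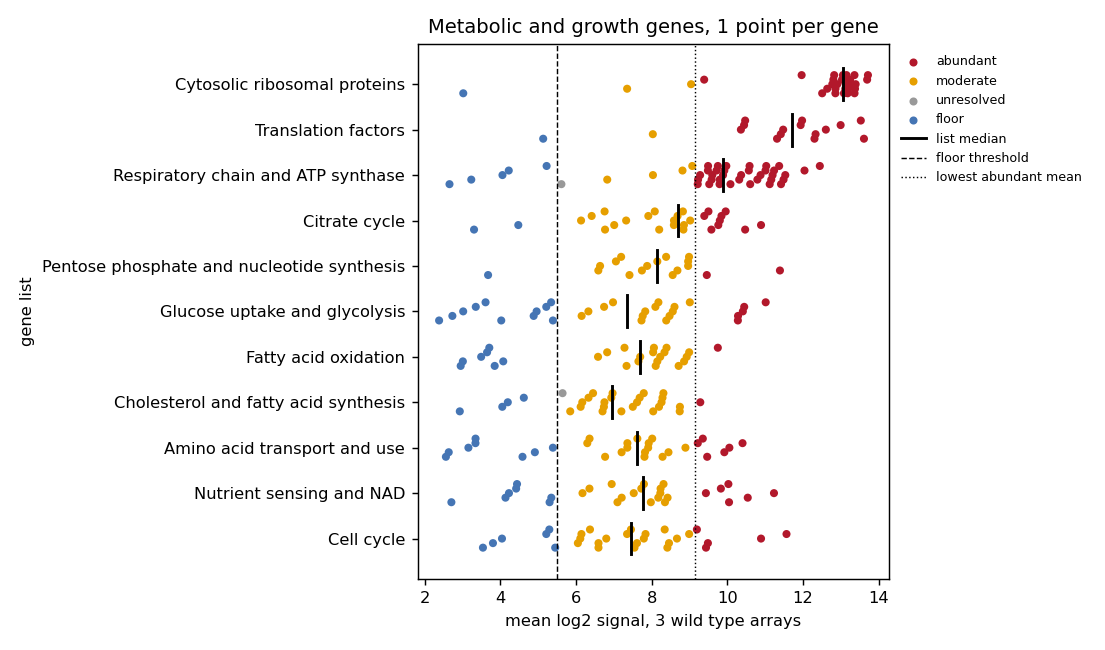
Mean log2 signal over the 3 wild type arrays of the genes of 11 metabolic and growth lists, with 1 point per gene coloured by class, the list median as a black bar, the floor threshold dashed and the lowest abundant mean dotted. Ribosomal proteins, translation factors and respiratory chain genes have medians of 13.07, 11.70 and 9.89, within the abundant range, and the other lists have medians of 6.95 to 8.68.

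Markers of other cell types were read to see which cells the separation could have let through. In RNA from whole samples, fewer cells of a type and less RNA per cell cannot be told apart, and the part of other cells in the levels above was not tested. Of 6 genes of CD8 T cells 3 were called, close to the 52.0% of all genes. The coreceptor chain Cd8a was at the floor with 4.79, 5.04 and 4.91, and the chain Cd8b1 was moderate with 6.19, 5.70 and 6.38. Eomes, a T-box factor that other lymphocytes also use, was the brightest with 7.95, 8.10 and 8.03, and Crtam was called as well. Of 7 thymocyte genes 3 were called (42.9%, against 52.0% of all genes). Rag1, Rag2 and Ptcra were at the floor, while Dntt, the terminal transferase of lymphocyte precursors, was moderate with 6.71, 7.08 and 6.26. The other 2 probe sets of Dntt had means of 4.68 and 3.92, at or below the threshold, and without probe sets ending in _s_at, _x_at or _a_at the list had 1 called gene.

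B cell genes lay in every class but the unresolved one. Of 14 measured markers 10 were called (71.4%, against 52.0% of all genes). The sum of the linear signals of the 14 was 14936 to 15188 on the 3 arrays. Most of this sum is Ighm. Its 11 probe sets ranged from a mean of 2.81 to 13.71, of which 8 lay above the floor threshold. The receptor chains Cd79b (7.93, 8.62 and 7.61) and Cd79a (7.22, 7.33 and 6.67) and the B cell antigen Ms4a1 or CD20 (8.27, 8.31 and 7.34) were moderate. Replicate 3 was the lowest array for these 3 genes. The coactivator Pou2af1 was moderate with 8.06, 7.63 and 7.63, the surface receptor Cd72 with 7.81, 7.84 and 7.74, the adaptor Blnk with 6.53, 6.74 and 6.36 and the factor Spib with 6.77, 7.01 and 6.60. The B cell factors Pax5 (3.38, 3.59 and 3.44) and Ebf1 (3.92, 4.53 and 4.02) and the receptors Cr2 and Fcer2a were at the floor. MHC class II presentation genes, which B cells, dendritic cells and macrophages use, were called in 7 of 8 cases (87.5%, against 52.0% of all genes). The invariant chain Cd74 read 10.42, 10.77 and 9.77 and H2-Aa 9.57, 9.86 and 9.08, again with replicate 3 lowest. Ctss, the brightest of the list, read 11.54, 11.21 and 11.49, with replicate 2 lowest. Ciita, the master regulator of MHC class II genes, was at the floor.

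Of 8 plasma cell genes 6 were called (75%, against 52.0% of all genes), with a summed linear signal of 7292 to 9341. The joining chain Jchain read 11.85, 11.997 and 11.87, and the IgA heavy chain Igha 11.56, 11.93 and 10.75. Xbp1, a factor of secretion that is not limited to plasma cells, was abundant with 10.46, 9.67 and 10.41. The surface markers Sdc1 (5.22, 5.36 and 5.33) and Tnfrsf17 (4.43, 4.19 and 4.40) were at the floor, and Derl3 was moderate with 6.24, 6.27 and 6.16.

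Natural killer and innate lymphoid genes were called in 10 of 12 cases (83.3%, against 52.0% of all genes), 11 without replicate 2. Their summed linear signal was 4234 to 4357. The granzyme Gzma read 10.12, 10.11 and 10.04, the granule protein Nkg7 9.60, 9.65 and 9.52, the adaptor Tyrobp 9.69, 9.65 and 10.01 and the lectin receptor Klrd1 9.05, 8.81 and 8.89. Tyrobp, which myeloid cells also express, was highest on replicate 3, and the other 3 differed less between arrays. Ncr1, the receptor NKp46 that is more specific for these cells, was unresolved with 5.90, 5.44 and 5.73, and Klra1 was at the floor. Cytotoxic T cells share several of these genes.

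Neutrophil genes were present on all arrays and most of all on replicate 3. Of 15 markers 10 were called (66.7%, against 52.0% of all genes), 9 without replicate 2. The summed linear signal was 8674, 9377 and 15945. The calcium-binding proteins S100a8 and S100a9 read 11.68, 11.93 and 12.44, and 11.72, 11.48 and 12.53. The granule genes Camp (7.81, 8.60 and 9.18) and Ltf (7.17, 7.85 and 8.68) were lowest on replicate 1 and highest on replicate 3, as was Ngp, which ran from 9.16 to 10.52. The part of these cells in the values of replicate 3 was not tested. The genes of the early granules, Elane, Ctsg, Prtn3 and Mpo, were at the floor by their mean, with Mpo at 3.88, 5.49 and 5.16.

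Monocyte and macrophage genes were called in 8 of 18 cases, below the 52.0% of all genes, with a summed linear signal of 3746 to 5715. The lysozyme genes Lyz1 (10.77, 10.59 and 11.38) and Lyz2 (9.47, 9.14 and 10.13) were abundant, again highest on replicate 3, and share sequence, so their probe sets may not separate them. The growth factor receptor Csf1r was moderate with 7.09, 8.07 and 8.20. The macrophage markers Adgre1 (4.50, 4.23 and 4.80), Mrc1, Fcgr1, Spic and C1qc were at the floor. Of 10 dendritic cell genes 5 were called, close to the share of all genes. Cst3 was abundant with 9.48, 9.53 and 9.35. Bst2 (8.46, 8.30 and 8.09), Ccr9 (8.18, 8.32 and 8.30), Itgax (5.96, 5.91 and 6.36) and Tcf4 were moderate. The dendritic cell factor Zbtb46 (4.02, 3.71 and 4.02), the receptor Xcr1, Cd209a, Batf3 and Flt3 were at the floor.

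Of the markers of further cell types few were called at this floor, against 52.0% of all genes. With the floor at the 75th percentile of the tissue genes the counts below were 6 for mast cells, basophils and eosinophils, 5 for erythroid, 4 for platelet, 6 for stroma and 3 for epithelium. Of 13 mast cell, basophil and eosinophil genes 2 were called, the factor Gata2 (6.17, 6.64 and 5.84) and Prg2 (6.19, 6.11 and 5.68). The count was 1 without replicate 2 and 0 without replicate 1. The other probe set of Gata2 had a mean of 4.74, below the threshold. The erythroid list had 1 of 8 called, the carbonic anhydrase Car2, with the globin gene Hba-a2 at the floor (4.25, 4.30 and 4.63). The platelet list had 1 of 9 called, the integrin chain Itga2b, and 0 without replicate 1, with Pf4 (3.48, 4.49 and 3.42) and Ppbp at the floor. In stroma and endothelium 1 of 16 was called, the adhesion molecule Pecam1, which leukocytes also carry, and the collagens Col1a1 (3.27, 3.31 and 3.16) and Col3a1 were at the floor. In epithelium 1 of 8 was called, the adhesion molecule Epcam (7.19, 6.44 and 6.97), and the keratins Krt8, Krt18 and Krt14 were at the floor.

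**Figure D4:**
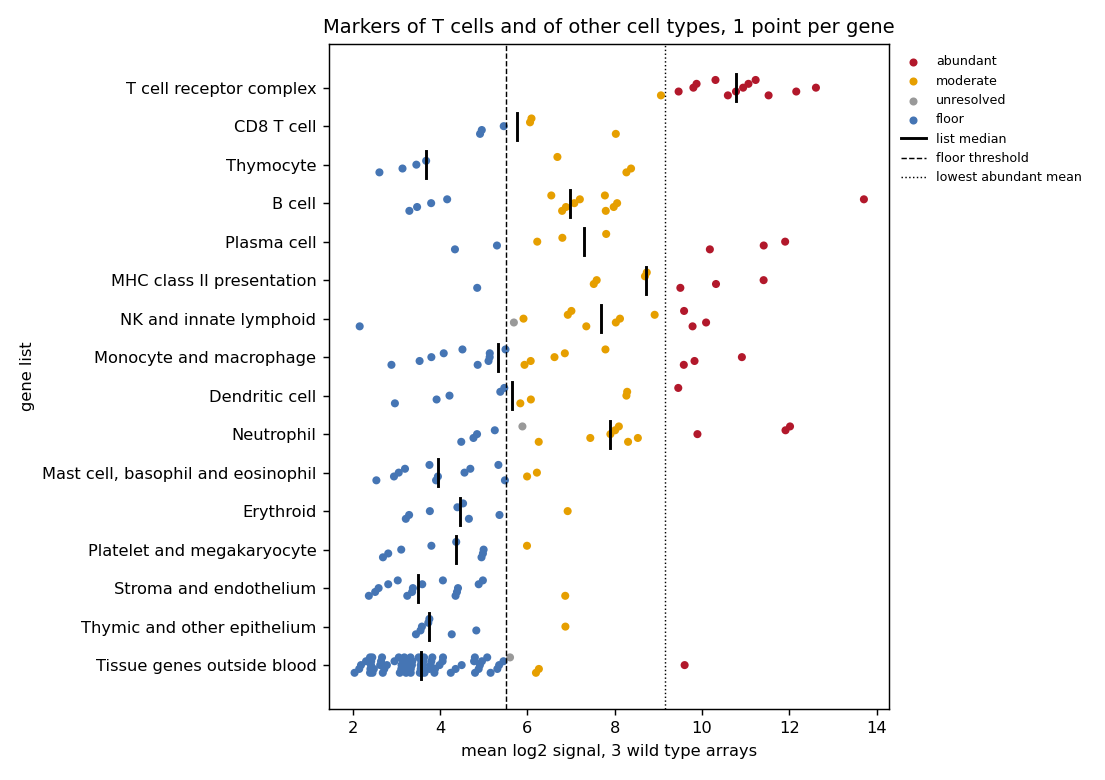
Mean log2 signal over the 3 wild type arrays of T cell genes, of markers of other cell types and of the tissue genes outside blood that set the floor, with 1 point per gene coloured by class and the list median as a black bar. The T cell receptor complex list, which includes other surface antigens of T cells, has a median of 10.78, the neutrophil list 7.90 and the B cell list 6.98. The stroma, epithelium and erythroid lists have medians of 3.48, 3.74 and 4.46, below the floor threshold.

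The wild type arrays differed little for most genes, and replicate 2 made most of the difference. The median SD over the 3 arrays was 0.175 among called genes, and 95% of them had an SD up to 0.473. Replicate 2 was the lowest array for 3248 of the 6439 called genes and the highest for 2205. It lay over 1 log2 unit below the mean of the other arrays for 88 genes and over 1 above it for 15, while replicates 1 and 3 differed by over 1 for 13. Among the genes of widest spread, Taf4 and Tgif1, a transcription factor subunit and a transcriptional repressor, read 7.38, 5.82 and 7.53, and 7.60, 6.14 and 7.68. Tnfaip3, the NF-kB feedback inhibitor A20, read 7.08, 5.90 and 7.52, and the ubiquitin-conjugating enzyme Ube2d1 7.48, 6.05 and 7.56. In the other direction stood the kinase Map3k12 (6.43, 7.94 and 6.35), Ccdc22 (7.03, 8.66 and 7.26) and Rpl27a (8.62, 10.28 and 9.23). Replicate 3 was high for the peptide transporter Slc15a2 (6.55, 7.33 and 8.98) and for Slfn4 (8.28, 7.42 and 9.26).

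By list, replicate 2 was lower than the mean of replicates 1 and 3 by a median of -0.34 for the 4 sex-linked genes, -0.32 for monocyte and macrophage genes, -0.32 for costimulatory and inhibitory receptors, -0.29 for cell cycle genes, -0.26 for neutrophil genes, -0.25 for JAK, STAT and SOCS genes and -0.24 for T cell receptor signalling. For neutrophil genes the list means were 7.23, 7.40 and 8.09, so replicate 2 lay above replicate 1 and below the high replicate 3. For monocyte and macrophage genes they were 5.89, 5.88 and 6.24, with replicates 1 and 2 nearly level. Replicate 2 was higher by 0.50 for MHC class II presentation, 0.38 for B cell genes, 0.38 for the 4 innate-like genes, 0.30 for platelet genes and 0.23 for the tissue genes outside blood. Over all genes the median was 0.06. Treg signature genes were level, at 0.02, with 16 of 29 higher on replicate 2 and 13 lower. Replicate 2 is also the array with the low 5′ and high hybridisation control signals. Their part in these shifts was not tested. Between replicates 1 and 3 the widest list difference was in neutrophil genes, with a median of -0.92.

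**Figure D5:**
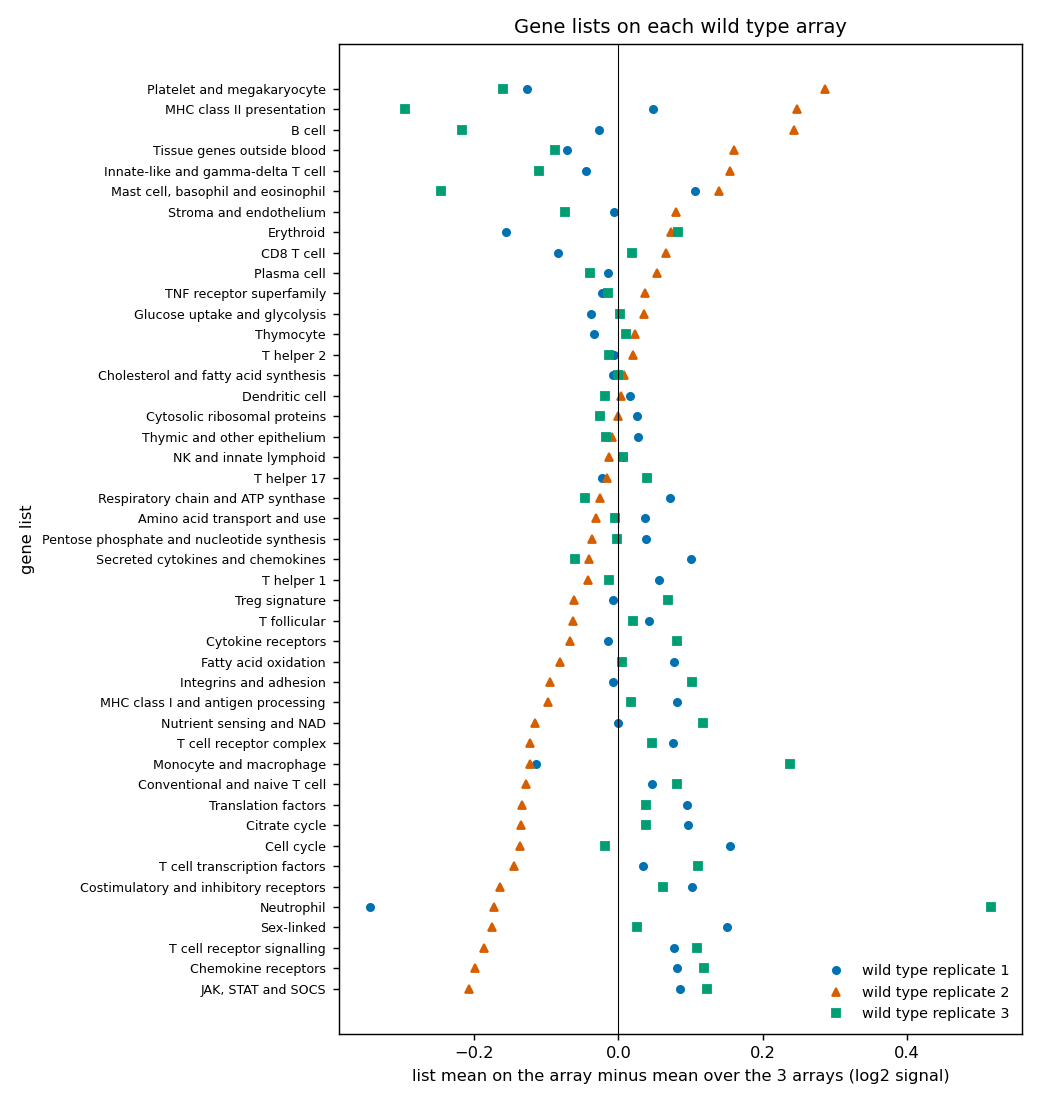
Mean log2 signal of each gene list on each wild type array minus its mean over the 3 arrays, with lists ordered by the value of replicate 2. Neutrophil genes spread most, with replicate 3 highest, and replicate 2 is lowest for the JAK, STAT and SOCS genes and for most T cell lists.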

How the data were processed

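RMA signals on the log2 scale, as deposited by the authors, were used without change; RMA is named in the submitters' processing notes, and the sources used here give neither its version nor the scanner or genome build. RMA subtracts background, equalises the distributions of the arrays and combines probes into 1 value, which removes shifts common to all genes. Array medians were 5.40, 5.37 and 5.42.

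Of 22690 probe sets 64 controls were left out, 20380 carried 1 gene symbol by the platform annotation, 691 carried several and 1555 were unnamed; 20351 symbols matched a RefSeq gene ID and 0 changed. Each of 12393 genes took its brightest probe set over the 3 arrays, and 4956 had more than 1. The test against the floor used limma 3.58.1 (R 4.3.3; intercept-only fit, eBayes, 2 residual and 2.35 prior degrees of freedom) on the wild type arrays alone; the threshold is treated as fixed, so its own error is not in the p-values, and the number of arrays, 3, limits the precision. The test was checked on simulated data in which the 3 arrays had equal and independent error. Replicate 2 departed from the others in the real data, so the check does not cover that departure. Promoter sequences are from RefSeq, GRCm38.p6. Members and lists were chosen with earlier results of these data known, and no set test was run.

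Named genes are Foxp3, Il2ra, Ctla4, Tnfrsf18, Cd4 and Sirt1, the 25 brightest genes, the 5 highest and 5 lowest members of each list, the 10 of widest spread and 3 on each side of the edge of the abundant class. Other list members named were chosen after their values were seen. Alternatives covered each array left out, the choice of probe set, the floor, the edge and ranking of the abundant class, and limma's settings.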

Additional observations from a re-analysis of the deposited data

How the results depend on the processing

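The count of genes above the floor ranged from 6121 to 6497 when 1 array was left out, and the count at the floor from 5589 to 5618. It was 6221 with the median over the probe sets of a gene, 5331 of 10529 genes without probe sets ending in _s_at, _x_at or _a_at, 6426 with limma's trend and robust settings, 6578 with array weights, 7076 with the floor at the 40th percentile of all genes and 8321 with it at the 75th percentile of the tissue genes, where the count at the floor was 3619. Of the 1239 abundant genes 917 were again abundant with the median over probe sets, 759 without those probe sets and 1231 when ranked by linear signal. Without those probe sets the abundant class held 1053 genes. Among 3443 genes with several probe sets and the brightest above the threshold, 1850 had another at or below it. Of the 426 genes named by rule, 59 above the threshold had another probe set at or below it. Zfp36l2, Hif1a, Slc2a3 and Pik3cd, given above as abundant, are among these, so their levels rest on the probe set used. Of 405 list counts under alternatives 376 lay within 1.5 times the value given. Without those probe sets, ribosomal proteins had 10 called genes and the respiratory chain 25. Genes with no other probe set were left out there, so a lower count does not show that members fell to the floor. No paired analysis was possible because a single group was analysed.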

Other observations

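The sex-linked genes fell in different signal classes. The Y-linked gene Eif2s3y was moderate with 8.46, 8.28 and 8.55, and Kdm5d with 6.95, 6.29 and 6.73, while Uty was unresolved with 5.86, 5.24 and 5.54. Xist, which is made from the inactive X chromosome, was at the floor with 3.75, 3.89 and 3.69. The labels do not give the sex of the mice.

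Of the 73 tissue genes outside blood that set the floor, 3 were called above it by limma. Because the floor is the 95th percentile of these same genes, a few lie above it by construction. Krt10, a keratin of the skin, read 6.48, 6.15 and 6.15, and Prm1, a protamine of sperm, 5.94, 6.69 and 5.96. The other probe sets of Prm1 had means of 1.98 and 1.98, below the threshold. Mbp, a myelin gene, read 9.61, 9.51 and 9.69 at its brightest probe set, and 6 of its 8 probe sets lay at or below the threshold. On replicate 2, 64 of the 73 lay above the mean of the other arrays and 7 below.

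The Gimap GTPases of lymphocytes, which were chosen after their values were seen, were abundant for Gimap4 (12.47, 12.10 and 12.40), Gimap3 (11.37, 11.60 and 11.56), Gimap6 (10.76, 10.56 and 10.81), Gimap7 (10.14, 10.28 and 9.98) and Gimap1 (9.89, 9.70 and 9.78).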
